A study of Homo sapiens with 4 samples.

Results

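The HOXD cluster is a run of 9 homeobox genes on the forward strand of chromosome 2, and here its promoters and surroundings were read out in H3K27ac ChIP-seq peak lists of 4 cancer cell lines. H3K27ac, the acetylation of lysine on the tail of histone H3, marks active promoters and enhancers. The members HOXD13, HOXD12, HOXD11, HOXD10, HOXD9, HOXD8, HOXD4, HOXD3 and HOXD1 were taken by name from the GENCODE annotation on hg19, and all 9 were found among 20098 protein-coding genes. Each line was represented by 1 library: COLO-205 for colon cancer, DU-145 for prostate cancer, and OVCAR-3 and SKOV-3 for ovarian cancer. All 4 are established human cancer cell lines in culture, and the labels give no treatment or genetic change for any of them. The study made the libraries to ask whether predicted regulatory mutations in these lines lie in active chromatin. The media were RPMI for COLO-205 and OVCAR-3, Eagle medium for DU-145 and McCoy’s medium for SKOV-3, so line and medium cannot be told apart, except between COLO-205 and OVCAR-3. A promoter counted as marked where a peak overlapped the 1 kb either side of any transcript start of the gene. With 1 library per line there is no replicate error, so differences between lines are differences between libraries, no test was made, and the intervals given cover counting error only.

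HOX genes encode transcription factors that give cells their position along the body axes and limbs. They sit in 4 clusters, HOXA to HOXD, and in the embryo the genes at one end, such as HOXD1 and HOXD3, act earlier and closer to the head than those at the other end, such as HOXD13. Silent HOX clusters carry the Polycomb mark H3K27me3 on the same lysine that is acetylated in H3K27ac, and a single histone tail cannot carry both at that place. HOXD genes act chiefly in limbs, digits and the urogenital tract.

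The lists held 14001 peaks in SKOV-3, 76093 in OVCAR-3, 75468 in DU-145 and 85576 in COLO-205, so the SKOV-3 list stands apart by its length. The depth recovered from the peak values was 22400000 ChIP tags in SKOV-3, 29800000 in COLO-205, 34200000 in OVCAR-3 and 36000000 in DU-145. As a check of the labels, marker genes were counted beside the share of all protein-coding genes with a promoter peak, 31.7% in SKOV-3, 51.3% in COLO-205, 60.6% in OVCAR-3 and 60.0% in DU-145. COLO-205 had a peak at 3 of 6 colon marker genes (CDX2, VIL1 and LGALS4), near its background, and at 4 of 6 ovarian and Mullerian ones. LGALS4 had a higher −log10 q in OVCAR-3, 48.8, than in COLO-205, 10.9, and CDX2 and VIL1 had a peak in no other line. OVCAR-3 had a peak at all 6 ovarian and Mullerian marker genes. In SKOV-3 the ovarian markers with a peak were PAX8 and SOX17, 2 of 6, near its background, and 4 of 5 mesenchymal marker genes had a peak beside 3 of 5 epithelial ones. In DU-145 1 of 6 prostate marker genes had a peak, below its background, where COLO-205 had 2 of 6, and 3 of 6 ovarian ones had a peak in DU-145, so the prostate origin of this line rests on its label.

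The sequences under the strongest HOXD promoter peaks are shown because they carry what the lines shared and what they did not: by −log10 q, the strongest promoter peak lay at HOXD12 in COLO-205, at HOXD1 in DU-145 and at HOXD3 in both ovarian lines. Each is the forward strand of GRCh37 around the summit, the position of highest tag pileup, with every CG dinucleotide in capitals, the letters that make up CpG islands.
COLO-205 HOXD12, chr2:176964683-176964883: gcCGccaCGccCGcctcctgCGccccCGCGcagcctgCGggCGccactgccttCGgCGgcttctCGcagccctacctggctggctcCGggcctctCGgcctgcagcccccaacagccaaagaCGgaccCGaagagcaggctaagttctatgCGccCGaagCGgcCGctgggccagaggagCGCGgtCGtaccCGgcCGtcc
DU-145 HOXD1, chr2:177053530-177053663: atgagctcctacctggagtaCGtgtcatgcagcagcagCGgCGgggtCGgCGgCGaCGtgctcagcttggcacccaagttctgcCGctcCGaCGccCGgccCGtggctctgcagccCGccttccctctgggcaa
OVCAR-3 HOXD3, chr2:177001388-177001588: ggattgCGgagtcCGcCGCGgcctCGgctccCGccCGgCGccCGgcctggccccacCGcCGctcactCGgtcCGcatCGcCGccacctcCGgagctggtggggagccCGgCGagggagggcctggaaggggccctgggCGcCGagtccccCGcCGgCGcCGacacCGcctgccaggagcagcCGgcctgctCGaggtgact
The HOXD12 stretch holds 24 CG dinucleotides at a GC share of 74.1%. The HOXD1 stretch is cut to the 134 bases from the start codon on and has 13 CG dinucleotides at 68.7% GC. The HOXD3 stretch of OVCAR-3 has 27 CG dinucleotides at 79.6% GC. The window of SKOV-3 at HOXD3 lies 25 bases further along and shares 176 of its bases, so the strongest promoter peaks of the ovarian lines have their summits in nearly the same CG-rich letters.

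Which HOXD promoters were marked differed from line to line. In COLO-205 5 of the 9 promoters had a peak, HOXD12, HOXD10, HOXD8, HOXD4 and HOXD3, where 51.3% of all protein-coding genes had one. In DU-145 only the promoter of HOXD1, 1 of 9, had a listed peak, against 60.0% of all protein-coding genes. In OVCAR-3 HOXD11, HOXD8, HOXD4 and HOXD3 had one, 4 of 9, against 60.6% of all. In SKOV-3 HOXD13, HOXD9, HOXD8 and HOXD3 had one, 4 of 9, against 31.7% of all. The share of marked HOXD promoters was thus below the background in DU-145 and within 2 genes of it in the other lines, and with 9 genes each promoter moves such a share by 11.1 percentage points.

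No HOXD promoter had a peak in all 4 lines, and every one had a peak in at least 1. Of the 9 genes, 6 were marked in 1 line, HOXD4 in 2, and HOXD8 and HOXD3 in 3. Over all protein-coding genes, 25.2% had a promoter peak in all 4 lines, 24.8% in none and 15.4% in 1. HOXD8 and HOXD3 shared 1 pattern, marked in COLO-205, OVCAR-3 and SKOV-3 and not in DU-145, which 139 protein-coding genes had, or 0.692%. No list holds peaks above a q-value of 0.001, so a promoter with no listed peak is one with no peak past that limit, not one shown to lack acetylation. The smallest pileup at a listed summit was 11 tags in SKOV-3, 12 in both COLO-205 and OVCAR-3 and 14 in DU-145.

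**Figure D1:**
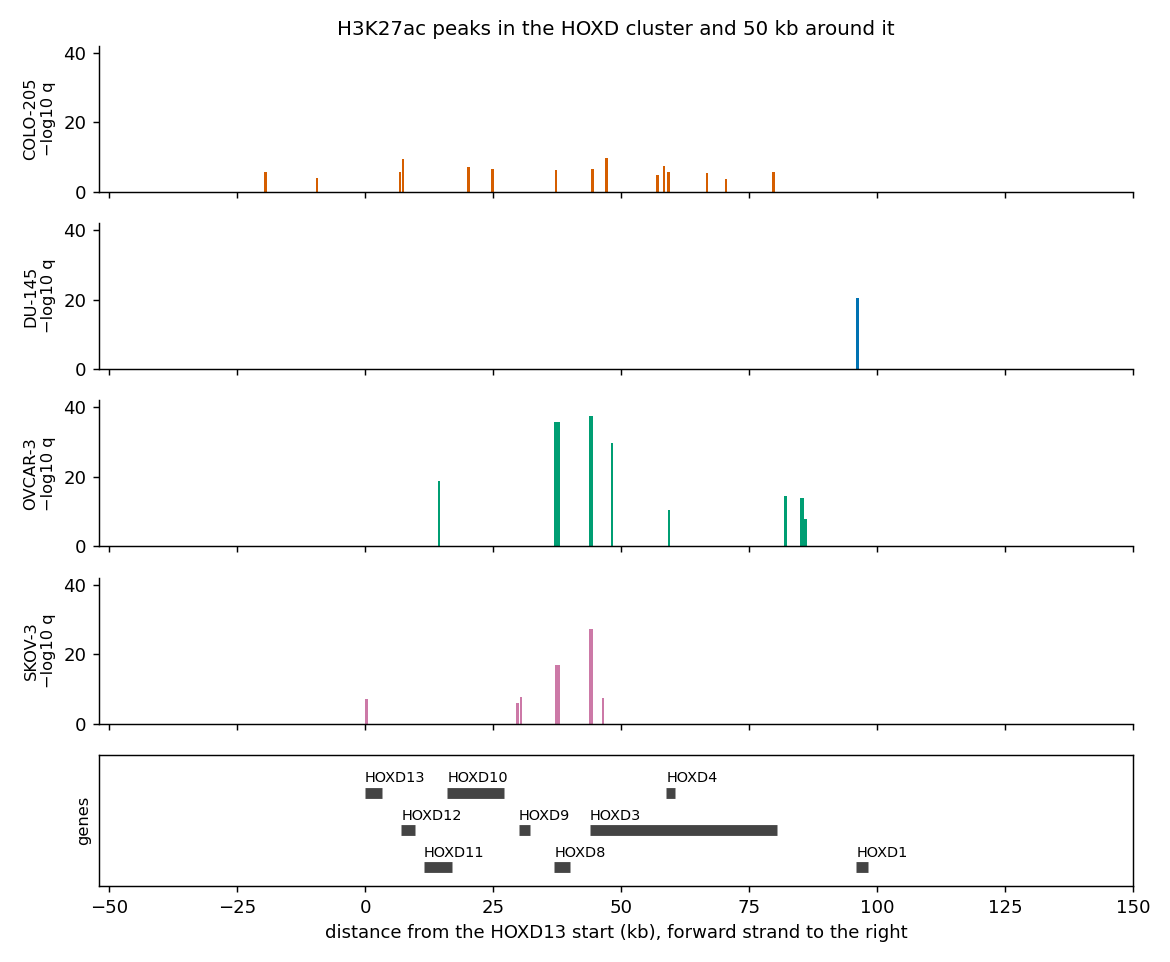
Peaks in the HOXD cluster and 50 kb around it, drawn by distance from the HOXD13 start in kb, with the −log10 q of each peak as its height and 1 row per cell line. COLO-205 has 15 low peaks across the region, DU-145 has 1 at HOXD1, and the tallest peaks of OVCAR-3 (37.6) and SKOV-3 (27.1) stand at the same place, the upstream start of HOXD3.

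Values at each promoter are given from the HOXD13 end, as the fold enrichment over the local background, the number of tags at the summit and the −log10 q that the peak caller computed within each library. HOXD13, the factor of the outermost digits and genital tubercle, was marked in SKOV-3 alone, by a 213 bp peak at chr2:176957515-176957727. That peak had a fold of 4.74, 21 tags at its summit and a −log10 q of 7.13, and its summit lay 167 bp inside the gene, in an exon. It was a weak promoter peak for its library: 12.3% of marked promoters in SKOV-3 had a lower −log10 q.

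HOXD12, a factor of the same end of the cluster, was marked in COLO-205 alone, by 2 peaks. The stronger, at chr2:176964607-176964960, had a fold of 4.69, 27 tags and a −log10 q of 9.36, with its summit in an exon 253 bp past a start. The weaker, at chr2:176964015-176964228, had a fold of 3.75 and a −log10 q of 5.68 and lay upstream of the gene. HOXD11, a factor of the forearm and kidney, was marked in OVCAR-3 alone, by a peak at chr2:176971601-176971896 with a fold of 6.07, 41 tags and a −log10 q of 18.7. Its summit lay at −277 bp from the later of its annotated starts, in an intron of the longer transcript, and no peak lay at the start of the gene record. HOXD10, known from hindlimb nerves and muscle, was marked in COLO-205 alone, by a peak at chr2:176982055-176982369 with a fold of 3.71, 25 tags and a −log10 q of 6.47. Its summit lay 717 bp past the nearest start, the farthest of the 14 gene and line pairs with a peak, and a window of 500 bp left it out.

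HOXD9, a limb factor, was marked in SKOV-3 alone, by 2 peaks on either side of its start. The stronger, at chr2:176987686-176987936, had a fold of 4.29, 26 tags and a −log10 q of 7.58, and the other, at chr2:176987001-176987262, had a fold of 3.89 and a −log10 q of 5.85. The genes towards HOXD13 were thus each marked in 1 line, and that line was COLO-205, OVCAR-3 or SKOV-3.

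HOXD8, a factor of the trunk in the middle of the cluster, was marked in 3 lines. In COLO-205 its peak was 228 bp wide with 27 tags and a −log10 q of 6.19, in OVCAR-3 it was 1066 bp wide with 61 tags and a −log10 q of 35.8, and in SKOV-3 it was 969 bp wide with 31 tags and a −log10 q of 16.8. Fold enrichment was 8.51 in OVCAR-3, 7.57 in SKOV-3 and 3.43 in COLO-205. The peaks of the ovarian lines covered almost the same bases, from 176994407 to 176995472 in OVCAR-3 and from 176994491 to 176995459 in SKOV-3, while their summits and that of COLO-205 spread over 339 bp. Per 1000000 ChIP tags, the summit held 0.906 tags in COLO-205 with a 95% Poisson interval of 0.597 to 1.32, 1.78 in OVCAR-3 with 1.36 to 2.29, and 1.38 in SKOV-3 with 0.940 to 1.96. The interval of COLO-205 lies below that of OVCAR-3 and overlaps that of SKOV-3.

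HOXD3, a factor that acts towards the head end and has also been studied for its part in cell adhesion, held the HOXD promoter peak with the highest −log10 q in both ovarian lines, although HOXD8 had the higher fold in OVCAR-3. Its upstream start had a peak of 792 bp in OVCAR-3, at chr2:177001202-177001993, with a fold of 7.70, 70 tags and a −log10 q of 37.6. In SKOV-3 the peak was 778 bp wide, at chr2:177001156-177001933, with a fold of 9.03, 45 tags and a −log10 q of 27.1. In COLO-205 the peak there was 263 bp wide, at chr2:177001609-177001871, with a fold of 4.06, 22 tags and a −log10 q of 6.58. Per 1000000 ChIP tags these summits held 2.05 tags in OVCAR-3 with an interval of 1.59 to 2.58, 2.01 in SKOV-3 with 1.47 to 2.69, and 0.738 in COLO-205 with 0.463 to 1.12. The ovarian lines therefore lay together above COLO-205 by more than counting error, which leaves out the spread between cultures. The summits of the ovarian lines fell in exons of both HOXD3 and HOXD-AS2, an antisense RNA that starts in the opposite direction at the same place, so acetylation at this spot cannot be assigned to 1 of these 2 genes. HOXD3 has 5 annotated starts, which makes its window, at 8349 bp, the longest of the cluster, and COLO-205 had a further weak peak at the last of them with a −log10 q of 3.64.

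HOXD4, a factor of the upper spine, lies within the long transcripts of HOXD3 and was marked in COLO-205 and OVCAR-3. The COLO-205 peaks lay on either side of its start, the stronger at chr2:177015544-177015960 with a fold of 5.08, 18 tags and a −log10 q of 7.39. The OVCAR-3 peak, at chr2:177016553-177016783, had a fold of 5.00, 27 tags and a −log10 q of 10.5. It overlapped the weaker COLO-205 peak, with summits 52 bp apart.

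HOXD1, a factor of the hindbrain end of the axis, was the 1 HOXD gene marked in DU-145 and was marked in no other line. Its peak, at chr2:177053412-177053850, was 439 bp wide with 62 tags at the summit and a −log10 q of 20.5. Its fold was 4.65 over a local background of 12.5 tags, while the summits of HOXD3 stood over 8.22 tags in OVCAR-3 and 4.09 in SKOV-3. Per 1000000 ChIP tags it held 1.72 with an interval of 1.32 to 2.20, which overlaps those of OVCAR-3 and SKOV-3 at HOXD3. Pileups count tags extended to a length that was longest in DU-145, and this was not corrected for. The summit lay 167 bp inside HOXD1 and 123 bp inside HAGLR, a long non-coding RNA gene that starts within HOXD1 and runs the other way, so this peak too lies over the starts of 2 overlapping genes.

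**Figure D2:**
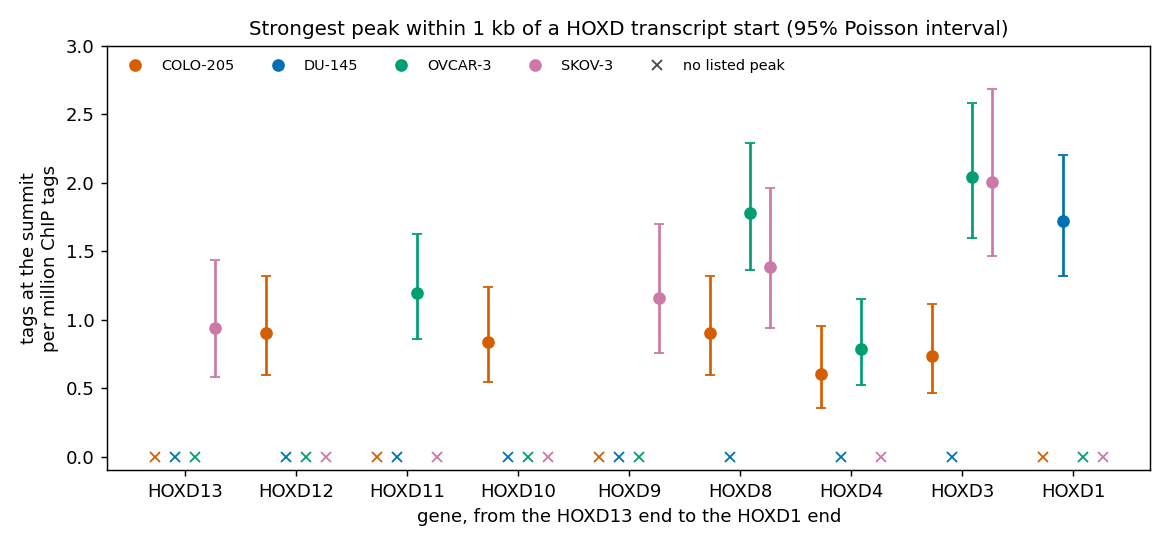
Tags at the summit of the strongest peak within 1 kb of a HOXD transcript start, per 1000000 ChIP tags, for the 9 genes and 4 lines, with bars for the 95% Poisson interval of the count and crosses where no peak is listed. OVCAR-3 (2.05) and SKOV-3 (2.01) reach the highest values at HOXD3, and DU-145 has 1 point, 1.72 at HOXD1.

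The rank of these peaks was taken within their own library, among the marked promoters, of which there were 6364 in SKOV-3, 10305 in COLO-205, 12056 in DU-145 and 12189 in OVCAR-3. The ranks of different lines are thus over unlike sets and give no order of the lines. Of the promoters with a peak, 46.9% in DU-145 had a lower −log10 q than HOXD1. At HOXD3 the share of marked promoters with a lower value was 84.2% in SKOV-3, 44.8% in OVCAR-3 and 13.3% in COLO-205, and at HOXD8 it was 62.2%, 43.0% and 10.5% in the same order. At the remaining genes the highest share was 33.6%, for HOXD12 in COLO-205, and the lowest 9.69%, for HOXD4 in OVCAR-3. HOXD3 and HOXD8 in SKOV-3 were therefore the 2 of 14 pairs above the middle of their library's marked promoters.

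The COLO-205 marks rested on weak peaks. At a −log10 q of at least 10, 0 of 9 HOXD promoters remained in COLO-205, where 31.7% of all protein-coding genes still had a peak. At the same limit 1 remained in DU-145 against 51.2% of all, 4 in OVCAR-3 against 55.5% and 2 in SKOV-3, HOXD8 and HOXD3, against 22.3%. With each list cut to its 14001 strongest peaks, the number in SKOV-3, there were 0 in COLO-205 against 21.9% of all, 1 in DU-145 against 37.9%, 2 in OVCAR-3 against 38.0% and 4 in SKOV-3 against 31.7%. The OVCAR-3 pair was again HOXD8 and HOXD3. These 2 promoters in the ovarian lines and HOXD1 in DU-145 were the ones present under every setting of peak strength.

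**Figure D3:**
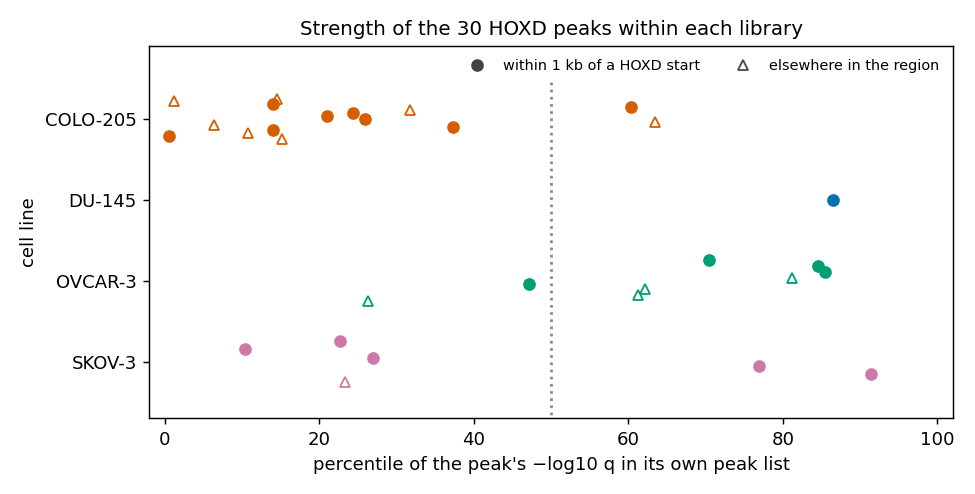
Each of the 30 peaks in the HOXD cluster and 50 kb around it, placed by the percentile of its −log10 q in its own peak list, 1 row per cell line, with the dotted line at the middle of the list. The COLO-205 peaks have a median percentile of 15.2 and reach 63.4, the OVCAR-3 peaks have a median of 66.3, and the SKOV-3 peaks have a median of 25.1 and reach 91.4.

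The whole region, chr2:176907449-177105635, held 30 peaks, of which COLO-205 had 15, OVCAR-3 had 8, SKOV-3 had 6 and DU-145 had 1. The bases covered were 4421 bp, 3997 bp, 2668 bp and 439 bp in the same order. As a share of the region this was 2.23% in COLO-205 against 0.508% of chromosome 2, 0.222% against 0.618% in DU-145, 2.02% against 0.606% in OVCAR-3 and 1.35% against 0.152% in SKOV-3. The covered share was thus higher than on chromosome 2 as a whole in 3 lines and lower in DU-145. In COLO-205 that direction was lost at a −log10 q of at least 10 and with equal numbers of peaks, where 0 peaks were left in the region, and the DU-145 count rose to 5 peaks with a flank of 100 kb.

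Of the 30 peaks, 18 overlapped a HOXD promoter window, and the 12 that did not were 1 in SKOV-3, 4 in OVCAR-3 and 7 in COLO-205. The summits of 10 peaks lay in an intron of HOXD3 and 13 in an exon of a HOXD gene, while 2 lay in no annotated gene. Summits in the exon of HOXD4, which lies in an intron of HOXD3, are in both counts. The strongest COLO-205 peak of the region was one of the intronic peaks, at chr2:177004362-177004580, with a fold of 5.29, 24 tags and a −log10 q of 9.72. In OVCAR-3 another HOXD3 intron peak, at chr2:177005377-177005705, had 74 tags, the most of any peak in the region, a fold of 5.56 and a −log10 q of 29.7. SKOV-3 had its own intron peak, at chr2:177003664-177003858, with a −log10 q of 7.22. None of these 3 peaks overlaps another.

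OVCAR-3 also had 3 peaks between HOXD3 and HOXD1, where the non-coding genes HAGLR and HAGLROS start in opposite directions. They lay at chr2:177039348-177039644 with a −log10 q of 14.5, at chr2:177042466-177043118 with 13.98 and at chr2:177043184-177043516 with 7.73. No other line had a peak there, although DU-145 marked the far start of HAGLR beside HOXD1. In COLO-205 peaks at chr2:177014277-177014570 and chr2:177015544-177015960 lay within 1 kb of the start of MIR10B, a microRNA between HOXD4 and HOXD8 that is conserved with the cluster. The 2 peaks outside the cluster proper were both in COLO-205, and the one at chr2:176947822-176948112, with a −log10 q of 3.96, lay in an intron of EVX2, a homeobox gene next to HOXD13.

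Overlapping peaks of different lines formed 25 separate stretches, of which 22 belonged to 1 line, 1 to 2 lines and 2 to 3 lines. In the 3 long lists, at most 32.0% of all peaks overlap a peak of any given other list. The share of stretches of 1 line over the genome was not computed, so the 22 have no background here. The shared stretches were the promoter of HOXD8 at chr2:176994407-176995472, the promoter of HOXD3 at chr2:177001156-177001993 and the start of HOXD4. Of the 6 SKOV-3 peaks, 33.3% overlapped an OVCAR-3 peak, where 68.3% of all SKOV-3 peaks did, and 0 overlapped a DU-145 peak, where 67.9% of all did. A COLO-205 peak was overlapped by 33.3% of the 6, where 51.0% of all SKOV-3 peaks did so. Of the 8 OVCAR-3 peaks, 25% overlapped a SKOV-3 peak, against 11.1% of all OVCAR-3 peaks, and 37.5% overlapped a COLO-205 peak, against 20.0%, while 0 overlapped a DU-145 peak, against 32.0%. Of the 15 COLO-205 peaks, 20% overlapped an OVCAR-3 peak, against 19.3% of all, and 13.3% a SKOV-3 peak, against 8.09%. A DU-145 peak was overlapped by 0 of these 15, against 17.4% of all COLO-205 peaks. The DU-145 peak at HOXD1 overlapped none in the other lists, where 31.0% of all DU-145 peaks overlapped OVCAR-3, 18.0% COLO-205 and 10.9% SKOV-3.

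With all listed peaks, DU-145 was the 1 line of the 4 in which HOXD was the HOX cluster with the smallest share of marked promoters. At a −log10 q of at least 10 no HOXD or HOXC promoter remained in COLO-205, so HOXD was joint lowest there too. With all listed peaks, the HOXD promoters of DU-145 were marked in 1 of 9 genes, while 7 of 11 HOXA, 7 of 10 HOXB and 6 of 9 HOXC promoters were, or 20 of 30 outside HOXD. In COLO-205 the count outside HOXD was 19 of 30 beside 5 of 9 in HOXD, in OVCAR-3 15 of 30 beside 4 of 9, and in SKOV-3 10 of 30 beside 4 of 9. Of all protein-coding genes 60.0% were marked in DU-145, 51.3% in COLO-205, 60.6% in OVCAR-3 and 31.7% in SKOV-3, so the counts outside HOXD were close to the background in SKOV-3 and DU-145, above it in COLO-205 and below it in OVCAR-3. SKOV-3 had 8 of its 10 in HOXB, 2 in HOXA and 0 in HOXC, so HOXD came after HOXB in its share of marked promoters. By bases covered, HOXD was at 0.447% in DU-145 against 12.7% of HOXA, 7.17% of HOXB and 8.77% of HOXC. In OVCAR-3 HOXD was at 4.07%, above HOXB at 2.92% and HOXC at 1.77% and below HOXA at 21.7%, whose strongest peak reached a −log10 q of 148. The windows of neighbouring genes can share a peak, so these counts are not of independent promoters.

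**Figure D4:**
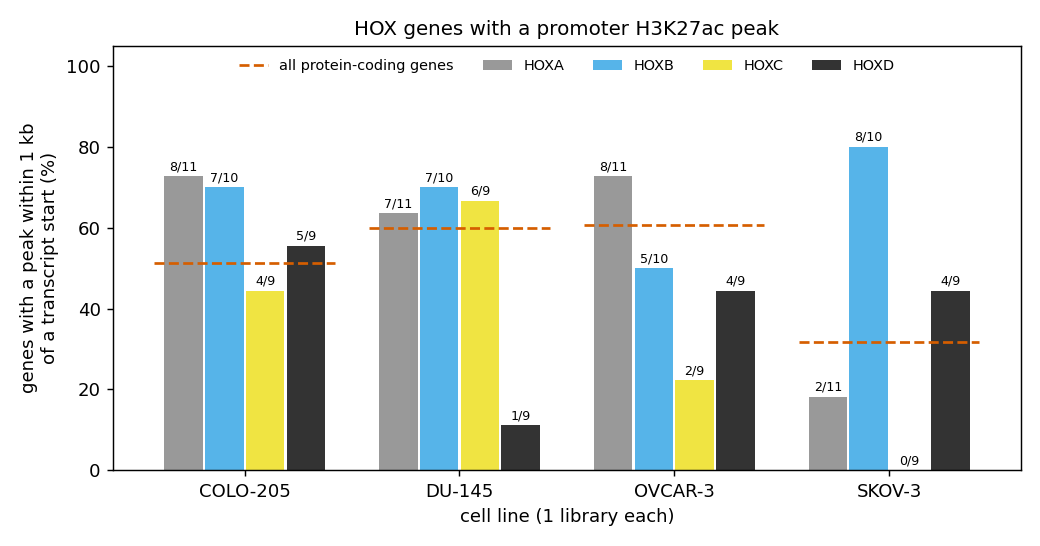
Percent of the genes of each HOX cluster with an H3K27ac peak within 1 kb of a transcript start, by cell line, with the number of genes over each bar and a dashed line for all protein-coding genes. HOXD is lowest in DU-145, at 1 of 9 under a line at 60.0%, and stands at 4 of 9 over a line at 31.7% in SKOV-3.

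Paralogues, the genes at matching places in the 4 clusters, did not follow their HOXD members throughout. HOXA3 and HOXB3 had a peak in all 4 lines, where HOXD3 lacked one in DU-145. HOXB8 had a peak in DU-145 and none in OVCAR-3, the reverse of HOXD8, while COLO-205 and SKOV-3 had one at both. HOXB1, unlike HOXD1, was marked in no line.

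HOX factors bind DNA together with the TALE homeodomain proteins of the PBX, MEIS and PKNOX families. Of 9 such cofactor genes, 6 had a promoter peak in COLO-205, DU-145 and OVCAR-3 each, or 66.7% beside 51.3%, 60.0% and 60.6% of all protein-coding genes, and 5 in SKOV-3, or 55.6% beside 31.7%. PBX2, PBX3, MEIS2 and PKNOX1 were marked in all 4 lines and MEIS3 in none. MEIS1 had a −log10 q of 143 in OVCAR-3, 18.2 in SKOV-3 and 13.9 in DU-145 and no listed peak in COLO-205, the line with the most HOXD peaks.

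Of 12 genes of the Polycomb complexes, which keep HOX clusters silent, 12 were marked in DU-145, 11 in OVCAR-3, 10 in COLO-205 and 7 in SKOV-3. EZH2, the methyltransferase of Polycomb repressive complex 2, had a −log10 q of 26.8 in COLO-205, 21.2 in DU-145 and 72.8 in OVCAR-3 and no listed peak in SKOV-3. Of 8 genes of the trithorax group and of H3K27 demethylation, which keep HOX genes active, all 8 were marked in OVCAR-3, 7 in COLO-205 and DU-145 each and 5 in SKOV-3. Both lists stand above the share of all protein-coding genes in every line and hold genes used by most cells. Of 6 genes of inputs to HOX clusters, the retinoic acid receptors RARA and RARG were marked in all 4 lines, as 25.2% of all protein-coding genes were. RARB was marked in OVCAR-3 and CDX2, an intestinal activator of HOX genes, in COLO-205 with a −log10 q of 19.2, and CDX1 and CDX4 in none. The list as a whole had 3 of 6 marked in COLO-205 and OVCAR-3 each and 2 of 6 in DU-145 and SKOV-3 each, within 2 genes of the share of all protein-coding genes in each line.

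Of the 4 protein-coding neighbours EVX2, MTX2, LNPK and ATP5MC3, SKOV-3 had a promoter peak at 1 and each other line at 3, and of the 4 non-coding genes HAGLR, HAGLROS, HOXD-AS2 and MIR10B, OVCAR-3 had one at 3, COLO-205 at 2 and the others at 1. The share over all protein-coding genes was 31.7% in SKOV-3 where the other lines had 51.3% to 60.6%, so the lower counts of SKOV-3 cannot be told apart from its short list. MTX2, a mitochondrial membrane protein gene past the HOXD1 end, had a promoter peak in all 4 lines, with a −log10 q of 66.4 in OVCAR-3, 20.2 in SKOV-3, 18.5 in COLO-205 and 6.67 in DU-145. In COLO-205 and OVCAR-3 this exceeded every peak within the HOXD region, while in DU-145 and SKOV-3 it did not. LNPK, past the other end, was marked in DU-145 and OVCAR-3, and EVX2 in COLO-205 alone. In DU-145 the region with its 1 HOXD peak therefore lay between neighbours with listed peaks on both sides.

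Letters around the HOXD summits were rich in G and C. In windows centred on the summit and as long as the HOXD12 stretch shown above, the median GC share was 64.2% over the 15 COLO-205 peaks, 70.6% for the DU-145 peak, 72.4% over the 8 OVCAR-3 peaks and 77.4% over the 6 SKOV-3 peaks. Summits near any protein-coding start had medians of 67.2%, 64.2%, 65.7% and 70.6% in these lines. The HOXD peaks of DU-145 and the ovarian lines thus had a higher median than promoter summits of their library, and those of COLO-205, of which 7 of 15 lay outside HOXD promoter windows, a lower one. Over all COLO-205 summits, promoter or not, the median was 59.7%, below that of its HOXD peaks. The median number of CG dinucleotides in a window was 13, 19, 22 and 26 in the same order, against 15, 14, 15 and 20 at promoter summits.

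Within 1 kb of the gene start, the median GC share of the 9 HOXD genes was 61.1% against 55.02% over all protein-coding genes. HOXD8 was at the top of the cluster with 67.6% GC and 218 CG dinucleotides, more than 98.4% of genes, and HOXD9, HOXD1 and HOXD13 had 188, 174 and 171. HOXD8 was marked in 3 lines and HOXD9, HOXD1 and HOXD13 in 1 each, while HOXD3, with 87 around its gene start, was marked in 3. Both strands were searched for 3 sets of letters. TGATTNAT, a PBX-HOX site, occurred in 1 of 30 windows, a COLO-205 peak, TGANTCA, an AP-1 site, in 1, also in COLO-205, and a CTCF core in 0. At promoter summits of COLO-205 they occurred in 0.244%, 1.80% and 0.639% of windows, and the highest share in any line was 2.45%, for TGANTCA in DU-145. The 30 windows include peaks outside HOXD promoter windows, among them the peak with TGATTNAT, so these shares are over an unlike set.

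Genes of a like pattern were sought among 20059 protein-coding genes outside the HOX clusters, by the distance over the 4 lines between rank percentiles of promoter peaks, set to 0 where no peak was listed. The mean of the HOXD genes was 19.3 in SKOV-3, 13.3 in OVCAR-3, 9.95 in COLO-205 and 5.21 in DU-145. The nearest were ZNF649 at a distance of 6.01, LAMP1 at 9.90, ZNF518B at 10.05, ENSG00000258989 at 10.9 and ASPHD2 at 11.4, where the median gene lay at 44.6. The members themselves lay farther from their mean, from 17.9 for HOXD9 to 72.4 for HOXD3, so the mean stands for no single HOXD gene.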

How the data were processed

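H3K27ac ChIP-seq was analysed in 4 cell lines with 1 library each. Per the labels and the study's methods, alignment to hg19 was done with Bowtie2 2.1.0, and the authors called narrow peaks library by library with MACS2 2.1.0.20150603, keeping a q-value under 0.001, which is 3 on the −log10 scale. For every peak the deposited lists give the summit, a score (the −log10 q multiplied by 10 and cut to a whole number), the fold enrichment against local background, and the −log10 p and −log10 q, none of them scaled between libraries. Merging of peaks closer than 350 bp is described in the methods, yet closer pairs occur in the deposited files, and so unmerged peaks were taken.

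Tags at each summit were solved from the deposited fold and −log10 p as the whole number whose Poisson p came within 0.001 on the −log10 scale, for at least 99.9% of peaks in each list, and 2700000000 genome positions were taken for the depth. On peaks simulated with the same formulas nearly all planted tag counts were returned, which checks the code and not the deposited values. The depth was not simulated. Intervals are exact Poisson intervals at 95%. Peaks that overlapped by 1 bp or more were called shared. Starts, exons and sequence came from GENCODE, release 44 lifted to GRCh37, and the GRCh37 genome, the build of the lists. The tools were pandas 2.3.3, matplotlib 3.10.9, scipy 1.17.1 and numpy 2.4.6 under Python 3.11.15.

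The HOXD members and the gene lists were chosen with earlier results of these data known. All 9 members, the 3 peaks of the region with the highest −log10 q in each line and the 5 genes of most similar pattern are named, and other peaks and neighbours were named after their values were seen. With 1 library per line no test was made. Alternatives covered 2 stricter limits on −log10 q (5 and 10), equal numbers of peaks, merging, other windows and starts, the summit in place of the peak, a flank of 100 kb and other scales of peak strength. Mutations, SNP calls and RNA-seq were not analysed here. The values of some genes of the lists are not reported here.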

Additional observations from a re-analysis of the deposited data

How the results depend on the processing

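No paired analysis was possible because each line has 1 library, and no library could be left out for the same reason. Of the 128 values recomputed under an alternative, 104 stayed within 1.5 times the reported value or kept their rank and 24 moved. At a −log10 q of at least 10 the HOXD promoters with a peak fell to 0 in COLO-205 and 2 in SKOV-3, the peaks of the region to 0 and 2, and the covered bases to 0 and 1747 bp, and the HOXA, HOXB and HOXC promoters in COLO-205 to 12. With 14001 peaks in every library the HOXD promoters fell to 0 in COLO-205 and 2 in OVCAR-3, the peaks of the region to 0 and 2, the covered bases to 0 and 1858 bp, and the HOXA, HOXB and HOXC promoters to 10 and 7. Both alternatives drop the weaker peaks by construction. A flank of 100 kb raised the DU-145 region from 1 to 5 peaks and from 439 to 1642 bp, and 3 of the added peaks lay at the LNPK or MTX2 start and 1 lay 6.41 kb from that of LNPK. By the strongest HOXD promoter peak, SKOV-3 was 1, OVCAR-3 2, COLO-205 3 and DU-145 4 by fold. By tags over depth, not corrected for the length of extended tags, the ranks were OVCAR-3 1, SKOV-3 2, DU-145 3 and COLO-205 4. The values of OVCAR-3 and SKOV-3, 2.05 and 2.01, were too close for their order to hold without that correction. By percentile within the library the ranks were SKOV-3 1, DU-145 2, OVCAR-3 3 and COLO-205 4, so the order of the lines depends on the scale. Merging, the summit in the window and starts of protein-coding transcripts left the marked HOXD genes the same in each line. The window of 500 bp left out HOXD10 in COLO-205, that of 2 kb added HOXD10 in OVCAR-3, and the start of the gene record left out HOXD10 in COLO-205 and HOXD11 in OVCAR-3. The HOXD summits hold 17 to 74 tags. The lists hold only peaks past the q-value limit, so a promoter just under that limit cannot be told from one with no acetylation.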

Other observations

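Beyond the cluster, from 50 kb to 1 Mb on either side, lie the gene deserts that hold limb enhancers of HOXD in development. On the HOXD13 side COLO-205 had 6 peaks, DU-145 7, OVCAR-3 5 and SKOV-3 1, of which 5, 2, 1 and 0 lay more than 1 kb from any protein-coding start. On the HOXD1 side COLO-205 had 3, DU-145 2, OVCAR-3 11 and SKOV-3 2, of which 2, 1, 10 and 1 lay away from a start. Averaged over its whole length, neither side had more peaks per Mb than chromosome 2 in any line. The highest value was 11.6, for OVCAR-3 on the HOXD1 side, where its chromosome 2 as a whole had 12.7. That average does not describe the 10 OVCAR-3 peaks away from a start, which were bunched between 177354953 and 177502900 of chromosome 2. Their summits lay 299.6 to 447 kb past the HOXD1 end, with a −log10 q between 4.36 and 27.8 and a median of 10.1. The strongest, at chr2:177399136-177399736, had a fold of 10.8 and 37 tags, above every fold within the HOXD region in any line.

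The 1 such SKOV-3 peak on that side, at chr2:177502143-177502908, overlapped the last of the OVCAR-3 peaks, at chr2:177502232-177502900. It had a fold of 6.69, 46 tags and a −log10 q of 21.4 in SKOV-3, and a fold of 4.16, 47 tags and a −log10 q of 14.1 in OVCAR-3. COLO-205 and DU-145 had no listed peak within this stretch. The nearest protein-coding start was that of MTX2, 368.4 kb away, so distance alone assigns the peak to no HOXD gene.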
